A study of Mus musculus with 38 samples.

Results

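*Igha* and *Igkc*, the constant-region genes of the IgA heavy chain and of the kappa light chain, were described in 38 spatially captured segments of mouse liver. They are 2 of the 10547 genes of the count table, and they were singled out because their counts had been seen to vary between segments. Their levels are therefore given as a description, with no test. Tests are given only for other genes of antibody production, transport and sensing.

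IgA is the antibody of mucosal surfaces and is made by plasma cells, the antibody-secreting descendants of B cells. In a plasma cell, 1 heavy chain type is paired with a kappa or a lambda light chain, and the J chain, encoded by *Jchain*, joins IgA units into polymers. The polymeric immunoglobulin receptor, encoded by *Pigr*, carries polymeric IgA across epithelia, in the liver towards bile. In the mouse, hepatocytes and cholangiocytes take part in that transport, and IgA plasma cells are known to lodge in the portal tracts.

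In the GRCm38.p6 assembly, to which the mm10 build of the files belongs, *Igha* lies at chr12:113256204-113260236 and *Ighm*, the IgM heavy-chain constant gene of the same locus, at chr12:113418826-113422730. *Igkc* lies at chr6:70726435-70726754 and *Jchain* at chr5:88519809-88527897. *Igha*, *Ighm* and *Igkc* are annotated there as constant-region segments and *Jchain* as protein coding.

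Livers came from WT mice and from TrailΔmye mice, matched for age (6 to 8 weeks) and sex. TrailΔmye mice carry floxed *Tnfsf10* (Trail) alleles recombined by Cre from the *Lyz2* locus, which is active in myeloid cells, so that macrophages and also neutrophils can lack TRAIL. The line was made on a C57BL/6 background. The study also kept floxed littermates without Cre as controls, but the spatial labels name WT alone. Over 21 days the mice received control food or food with 0.1% DDC, a porphyrinogenic agent that causes cholestatic injury, in rounds of 5 days separated by 3 days of chow, and were euthanized on day 22. Formalin-fixed sections were hybridised with whole-transcriptome probes, and regions of interest (ROIs) around ductular reactions or in the parenchyma were split by antibody stain into PanCK+ (cholangiocyte) and IBA1+ (macrophage) segments.

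The WT segments comprised 3 PanCK+, 2 periportal IBA1+ and 1 parenchymal IBA1+ segment on the control diet, and 4, 4 and 2 on DDC. The TrailΔmye segments comprised 4, 4 and 2 on the control diet and 5, 5 and 2 on DDC. In all there were 16 PanCK+, 15 periportal IBA1+ and 7 parenchymal IBA1+ segments of 23 ROIs, and 15 periportal ROIs gave both. The labels do not tie segments to mice, so segments of a group may share an animal and all p-values below, which take segments as replicates, are too small to stand for animals.

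Total counts ran from 20319 to 106664 in WT and from 33832 to 836971 in TrailΔmye segments, so that depth and genotype moved together. The lowest value of every gene is 1 count, and 27.2% of all values were 1. A level was read as measured only above a floor of 3 counts, which stands for 2.81 to 14.8 counts per 100000 in WT and 0.358 to 8.87 in TrailΔmye segments. Intervals and floors cover counting error only, and not the spread between segments or animals. In all 15 shared ROIs the summed level of 10 cholangiocyte markers was higher in the PanCK+ segment and that of 10 macrophage markers in the IBA1+ segment. Hepatocyte markers were present in every class, with summed medians of 3197 in PanCK+, 4261 in periportal and 12166 in parenchymal IBA1+ segments on the Q3-normalized scale (counts multiplied by 1 factor per segment so that the 75th percentile is 10.5).

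*Igha* and *Igkc* were high in 2 of the 23 ROIs, and both were periportal ROIs of TrailΔmye liver. ROI 029 came from the control diet and ROI 036 from DDC, so by their labels they come from different mice. The IBA1+ segment of ROI 036 held 1095 *Igha* and 814 *Igkc* counts, and that of ROI 029 held 359 and 307. In these segments *Igha* was 0.632% of all counts (95% exact binomial interval 0.595% to 0.670%) and 0.359% (0.323% to 0.398%). In bulk segments such as these, more cells of a type and more RNA per cell cannot be told apart.

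Counts of *Igha* in the 4 control diet-fed TrailΔmye IBA1+ periportal segments were 1, 1, 5 and 359, and those of *Igkc* 1, 9, 23 and 307. ROI 029 was the highest for both, and its *Igha* level was 144-fold and its *Igkc* level 26.7-fold above the next segment of the group after Q3 normalization. In the 5 DDC-fed TrailΔmye IBA1+ periportal segments, *Igha* counts were 6, 6, 19, 31 and 1095, and *Igkc* counts 8, 27, 32, 36 and 814. ROI 036 stood 65.9-fold above the next *Igha* level and 23.6-fold above the next *Igkc* level.

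The PanCK+ segments of the same ROIs were also the highest of their groups. In control diet-fed TrailΔmye PanCK+ segments *Igha* counts were 1, 1, 1 and 52 and *Igkc* counts 1, 1, 7 and 51, with ROI 029 at the top, 31.2-fold and 5.83-fold above the next level. In DDC-fed TrailΔmye PanCK+ segments *Igha* counts were 5, 9, 10, 32 and 48 and *Igkc* counts 6, 8, 8, 30 and 33. The highest counts there belonged to ROI 035, the deepest ROI, but after Q3 normalization ROI 036 was highest, 2.13-fold above the next *Igha* and 2.25-fold above the next *Igkc* level.

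All 16 WT segments held 1 to 3 counts of *Igha* and 1 or 2 of *Igkc*, at or under the floor, on both diets and in every segment class. Their floors of 2.81 to 14.8 counts per 100000 lie far below the 359 and 632 *Igha* counts per 100000 of the IBA1+ segments of ROI 029 and ROI 036, so such a level would have been seen at WT depth. The 10.0 to 11.0 per 100000 found in the IBA1+ segment of ROI 034 and the PanCK+ segment of ROI 036 would not have been seen in every WT segment. The total count of the ROI 029 PanCK+ segment, 54834, falls within those of the DDC-fed WT PanCK+ segments, 46676 to 61665. It lies above those of the WT PanCK+ segments on its own control diet, 23481 to 29510.

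The 7 parenchymal IBA1+ segments held at most 7 counts of *Igha* and 5 of *Igkc*. The 4 of TrailΔmye liver had *Igha* counts of 6 and 7 on the control diet and 1 and 3 on DDC, and *Igkc* counts of 5 and 2 on the control diet and 1 and 1 on DDC. The negative probe is the background value of the panel, with no target in the mouse. It is not a whole number, so it is no count of a single probe. Relative to it, these *Igha* counts were 0.81 to 2.19 times as high and the *Igkc* counts 0.33 to 0.91 times.

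**Figure D1:**
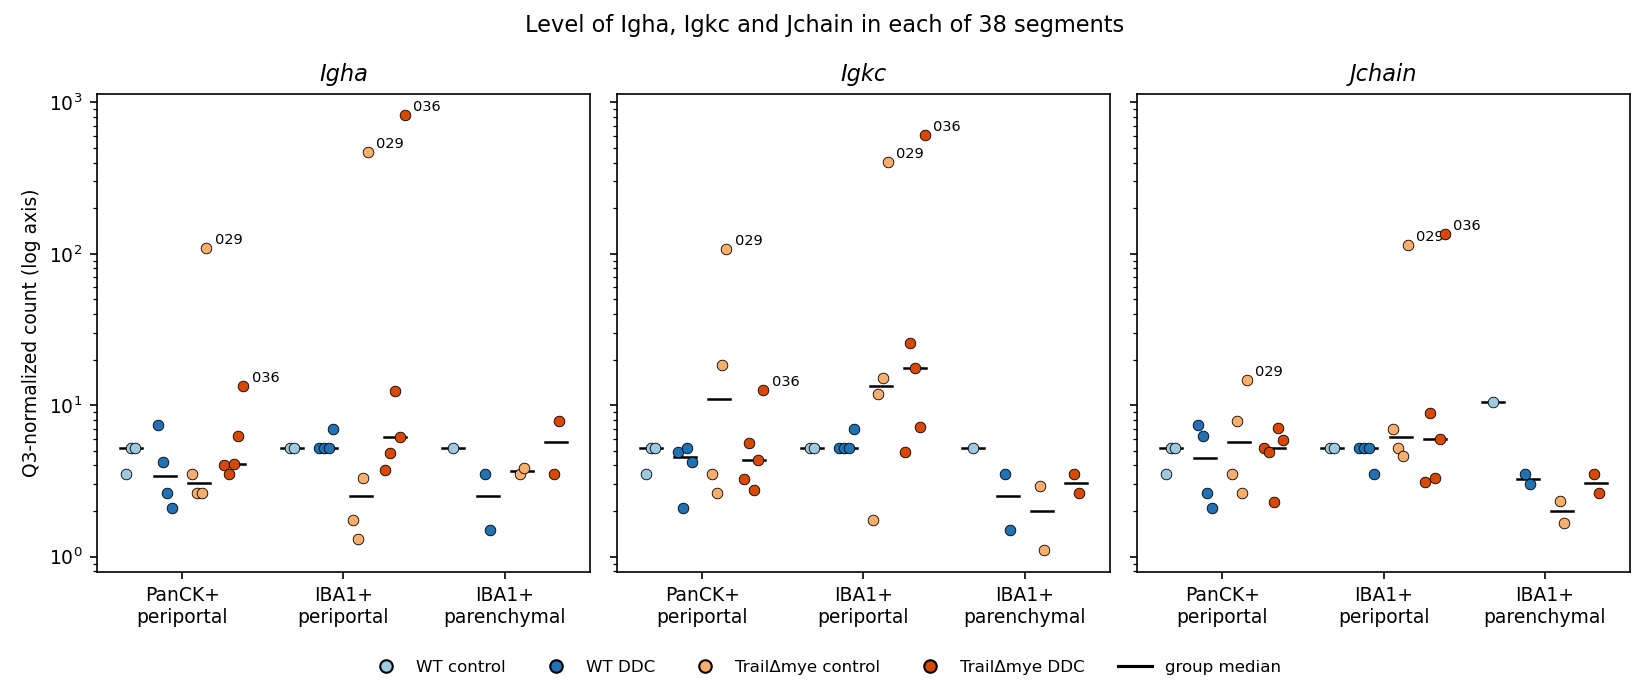
Q3-normalized count (log axis) of *Igha*, *Igkc* and *Jchain* in each of 38 segments (points), by segment class and by genotype and diet (colours), with group medians as lines and ROI 029 and ROI 036 numbered where above 10. The IBA1+ segments of ROI 036 and ROI 029 lie at 822 and 471 for *Igha*, 611 and 403 for *Igkc*, and 134 and 114 for *Jchain*, above every other segment.

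Ordered by the median Q3-normalized level, the 12 groups did not separate. For *Igha* the medians ran from 6.14 in DDC-fed TrailΔmye periportal IBA1+ segments to 2.52 in control diet-fed TrailΔmye periportal IBA1+ segments, with DDC-fed WT parenchymal segments just below, and the range of each group overlapped that of the next. For *Igkc* the 3 highest medians were those of the TrailΔmye periportal IBA1+ groups, 17.7 on DDC and 13.5 on the control diet, and of the control diet-fed TrailΔmye PanCK+ group, 10.9. The other 9 medians lay at 5.25 or lower, and again neighbouring ranges overlapped. A value of 5.25 is what 1 count is worth in many of the WT segments.

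The 4 segments of ROI 029 and ROI 036 held 89.5% of the 1719 *Igha* counts and 84.0% of the 1431 *Igkc* counts of the data set, against 12.2% of all counts. *Jchain* followed with 61.3% of 468 counts. These were the 3 highest such shares of the 10547 genes, and since the ROIs were picked out by *Igha* and *Igkc* only the place of *Jchain* was not set by that choice. *Ighm* was not concentrated there, with 8.84% of its 294 counts.

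For every gene, the log2 level in a segment was set against the highest of the other segments in its group. In the ROI 029 IBA1+ segment this margin was 7.17 for *Igha*, 4.74 for *Igkc* and 4.03 for *Jchain*, and the next gene was *Cdc20* at 2.58. In the ROI 036 IBA1+ segment it was 6.04, 4.56 and 3.92, and the next gene was *Tbxas1* at 1.64. Both IBA1+ segments thus had the same 3 genes at the top in the same order. The ROIs were picked out by *Igha* and *Igkc*, so only the place of *Jchain* was not set by that choice. In the PanCK+ segment of ROI 029 the margin of *Igha* was 4.96, the highest of all genes, and that of *Igkc* 2.54, the fourth. In the PanCK+ segment of ROI 036 *Igkc* was first at 1.17 and *Igha* second at 1.09. *Jchain* did not stand out in the PanCK+ segments, with a margin of 0.90 in ROI 029, rank 498 of all genes, and of -0.27 in ROI 036, below the highest other segment.

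**Figure D2:**
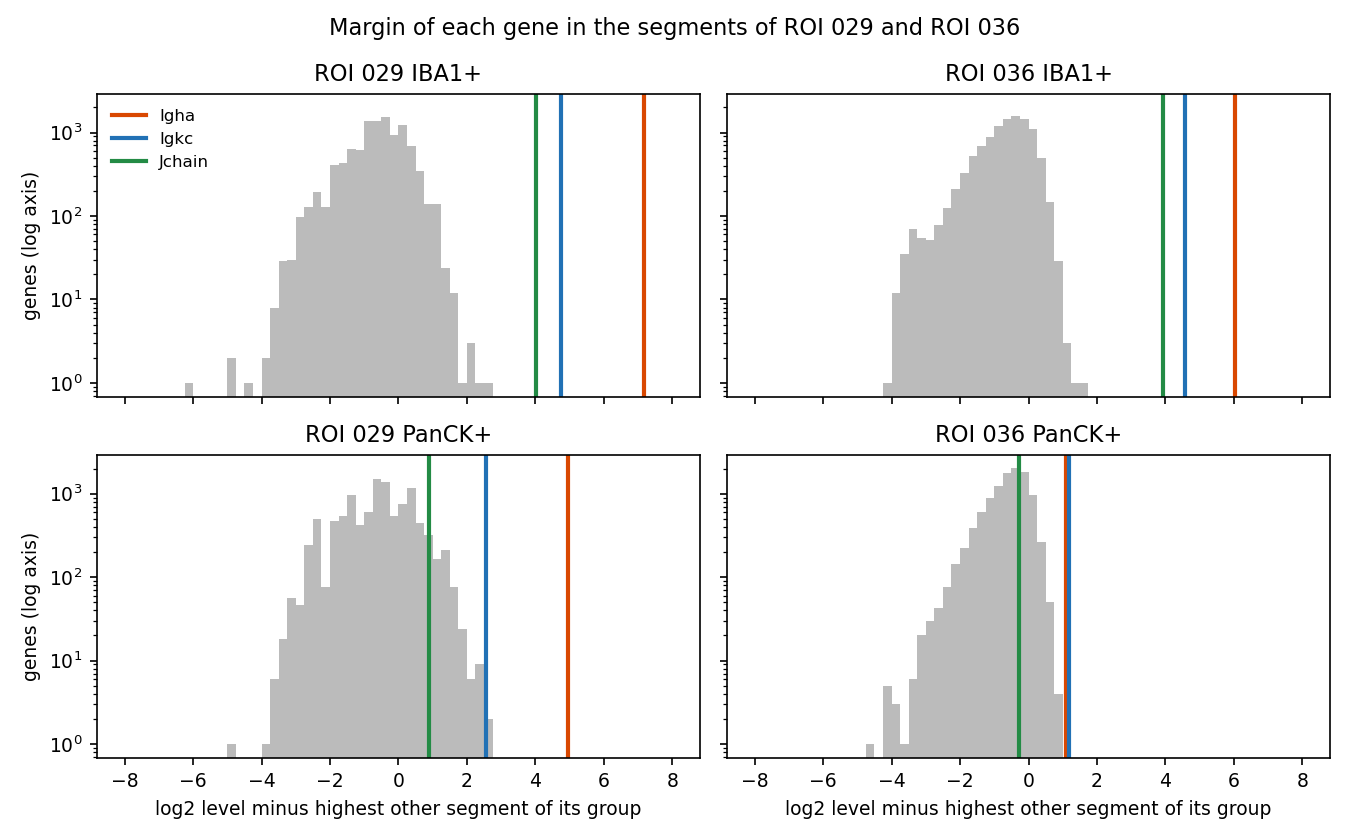
Number of genes (log axis) by the log2 Q3-normalized level in a segment minus the highest level among the other segments of its group, for the IBA1+ and PanCK+ segments of ROI 029 and ROI 036, with *Igha*, *Igkc* and *Jchain* as coloured lines and all other genes in grey. In both IBA1+ segments the 3 lines lie to the right of all other genes, at margins of 3.92 to 7.17.

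*Jchain* held 87 counts in the IBA1+ and 7 in the PanCK+ segment of ROI 029, and 179 and 14 in those of ROI 036. Its Q3-normalized level in these IBA1+ segments, 114 and 134, was 16.3-fold and 15.1-fold above the next of the group. The other measured plasma cell genes did not rise to such margins. Of 10 of them (of 17 listed), none was the highest of its group in the ROI 029 IBA1+ segment, and 2 were in that of ROI 036. Of all 10547 genes, 2005 and 1758 were the highest in these segments. The 2 were *Prdm1*, which encodes the plasma cell transcription factor BLIMP1, by 0.13, and *Txndc5*, a disulfide isomerase of the endoplasmic reticulum, by 0.17 on the log2 scale.

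*Sdc1*, the surface proteoglycan CD138, held 4 and 12 counts in the ROI 029 and ROI 036 IBA1+ segments, and *Xbp1*, a transcription factor of secretory cells, 14 and 23. *Derl3*, a factor of protein degradation at the endoplasmic reticulum, held 3 and 4 counts. Each of these was below the highest other segment of its group. Of all 45 companion genes of the lists other than *Jchain* and *Ighm*, 2 were highest in the ROI 029 IBA1+ segment and 13 in that of ROI 036. Their margins were at most 0.26 and 0.70 (a tie counted as highest). Of all 10547 genes, 2005 and 1758 were highest in these segments, ties not counted.

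Of 17 B cell genes, *Cd22*, *Cd37* and *Bcl6* were measured. *Cd22*, an inhibitory receptor of B cells, held 7 counts in the IBA1+ segment of ROI 029 and 9 in that of ROI 036, and *Cd37*, a leukocyte tetraspanin, 2 and 13. *Bcl6*, a transcription factor of germinal centre B cells, held 1 and 17. The T cell marker *Cd3e* had Q3-normalized levels of 3.94 and 2.25, the third of 4 and the lowest of 5 in its group. The summed level of 10 macrophage markers was 551 in the ROI 029 IBA1+ segment, the lowest of 4, and 903 in that of ROI 036, the highest of 5. The part of other cell types in the *Igha* and *Igkc* levels was not tested.

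The PanCK+ and IBA1+ segments of 1 ROI are neighbouring cells of the same tissue, so the difference between them was taken in each of the 15 shared ROIs. *Igha* was above the floor in at least 1 segment of 7 ROIs and *Igkc* in 8, all of TrailΔmye liver. Both segments were at or under the floor in the other 8 and 7 ROIs, which include all 6 of WT liver. *Igha* was higher in the IBA1+ segment in 5 of its 7 ROIs, and *Igkc* in 7 of its 8.

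In ROI 036 the Q3-normalized level of *Igha* was 61.1-fold higher in the IBA1+ than in the PanCK+ segment (95% counting interval 43.0 to 86.8), and that of *Igkc* 48.5-fold higher (33.7 to 69.8). In ROI 029 these ratios were 4.31 (3.23 to 5.77) and 3.76 (2.80 to 5.06). The counting intervals of the ROIs do not overlap for either gene. *Jchain* was higher in the IBA1+ segment by 22.8-fold (13.3 to 39.3) in ROI 036 and by 7.77-fold (3.60 to 16.8) in ROI 029.

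Outside these ROIs the *Igha* ratios were smaller than in either of them. The *Igkc* ratios were all below that of ROI 036. In ROI 034, ROI 033 and ROI 027 they were above the 3.76 of ROI 029, with overlapping counting intervals. The *Igkc* ratio of ROI 027 was 4.50 (0.570 to 35.5), from 1 count in the PanCK+ and 9 in the IBA1+ segment. In ROI 034, *Igha* was 3.03-fold (1.37 to 6.71) and *Igkc* 6.47-fold (2.67 to 15.7) higher in the IBA1+ segment. In ROI 033 *Igkc* was 4.62-fold higher (2.13 to 10.0), from 8 counts in the PanCK+ and 32 in the IBA1+ segment, while *Igha* held 5 and 6 counts with a ratio of 1.38 (0.423 to 4.54). In ROI 035 the ratio was 0.975 (0.621 to 1.53) for *Igha* and 1.65 (1.03 to 2.64) for *Igkc*. In ROI 028 the *Igkc* level was lower in the IBA1+ segment, with a ratio of 0.821 (0.352 to 1.91), from 7 and 23 counts.

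The counting interval lay above a ratio of 1 in 3 of the 7 ROIs for *Igha* and in 5 of the 8 for *Igkc*, and below 1 in none. ROI 035 is among the 5, although its *Igkc* counts were only 0.77 (PanCK+) and 1.29 (IBA1+) times the negative probe. Outside ROI 029 and ROI 036, the IBA1+ segment was higher in 3 of 5 ROIs for *Igha*, with a median log2 difference of 0.32, and in 5 of 6 for *Igkc*, with a median of 1.44.

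**Figure D3:**
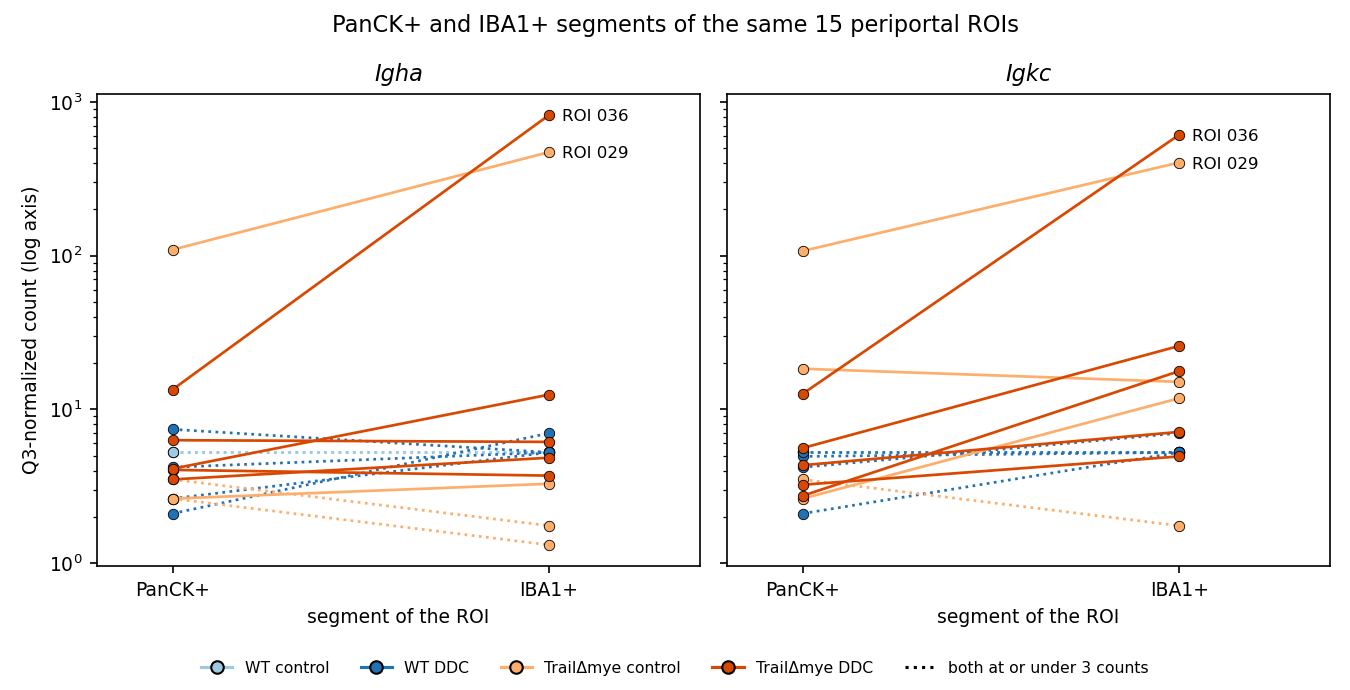
Q3-normalized count (log axis) of *Igha* and *Igkc* in the PanCK+ and the IBA1+ segment of each of 15 periportal ROIs, joined by a line and coloured by genotype and diet, with dotted lines where both segments held at most 3 counts. ROI 036 climbs from 13.4 to 822 for *Igha* and ROI 029 from 109 to 471.

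The log2 fold change of PanCK+ over periportal IBA1+ segments, fitted with a term for the group, was -3.28 for *Igha* and -3.04 for *Igkc*. Without ROI 029 and ROI 036 it was -0.40 and -1.25, and without the ROI 036 IBA1+ segment alone -0.96 and -1.29. With the ROI as a block it was -1.78 and -2.05.

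The negative probe gave a second reading of the low counts. Its value was 43.1 in the PanCK+ and 27.8 in the IBA1+ segment of ROI 035, the deepest segments. *Igha* held 48 and 31 counts in them and *Igkc* 33 and 36. There *Igha* was 1.11 times the negative probe in both segments and *Igkc* 0.77 and 1.29 times, so these counts, the highest outside ROI 029 and ROI 036, were close to background. In the ROI 036 IBA1+ segment *Igha* was 486 and *Igkc* 361 times the negative probe, and in that of ROI 029, 142 and 121 times.

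Over the 34 other segments the log2 count went with the log2 negative probe count, with Pearson's r of 0.88 for *Igha* and 0.77 for *Igkc*, points that share depth. Some segments lay above it. *Igkc* was 12.3 times the negative probe in the IBA1+ segment of ROI 034 (27 counts), 9.88 in that of ROI 033 (32 counts), 5.58 in the PanCK+ segment of ROI 028 (7 counts), 4.82 in its IBA1+ segment (23 counts) and 4.08 in the IBA1+ segment of ROI 027 (9 counts). For *Igha*, the highest such value outside the 2 ROIs was 8.62, in the IBA1+ segment of ROI 034 (19 counts).

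**Figure D4:**
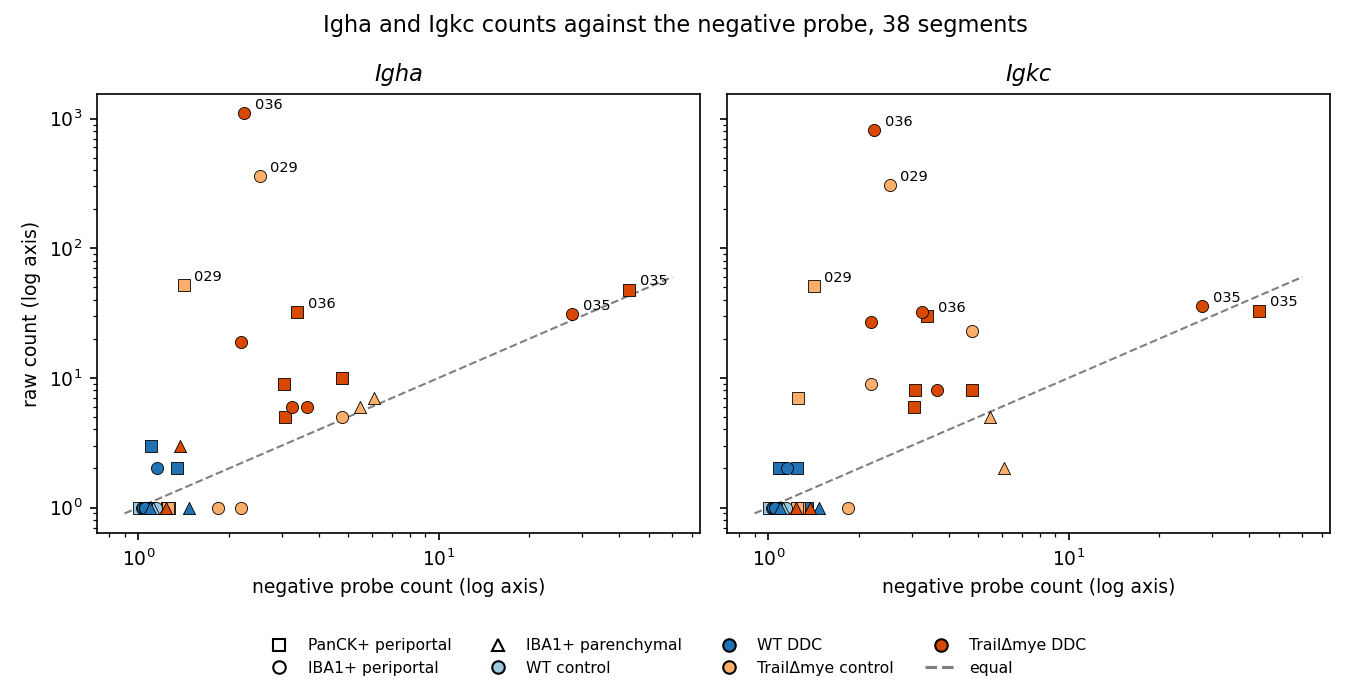
Raw count of *Igha* (left) and *Igkc* (right) against the negative probe count in 38 segments, both on log axes, with shapes for segment class, colours for genotype and diet, and a dashed line where both are equal. The segments of ROI 035 lie near the line at 31 to 48 *Igha* counts, and those of ROI 029 and ROI 036 far above it.

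*Igha* and *Igkc* did not hold the same proportion everywhere. The share of *Igha* in the sum of both counts depends on how well each probe works, so only shares in different segments were compared. It was 57.4% (95% exact binomial interval 55.1% to 59.6%) in the ROI 036 IBA1+ segment and 53.9% (50.03% to 57.7%) in that of ROI 029. In the PanCK+ segments it was 51.6% (38.6% to 64.5%) and 50.5% (40.5% to 60.5%), so the intervals of the PanCK+ and IBA1+ segments overlapped within both ROIs. Such a share was not particular to them. In ROI 035, where counts were close to background, it was 59.3% (47.8% to 70.1%) in the PanCK+ and 46.3% (34.0% to 58.9%) in the IBA1+ segment.

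The share was 15.8% (6.02% to 31.3%) in the IBA1+ segment of ROI 033 on DDC and 17.9% (6.06% to 36.9%) in that of ROI 028 on the control diet. Their intervals lie wholly below those of the IBA1+ segments of ROI 029 and ROI 036. In the IBA1+ segment of ROI 027 the share was 10.0% of 10 counts (0.253% to 44.5%). *Igkc* thus held counts above the negative probe in segments where *Igha* was at or near it, at 1.85 times the negative probe in ROI 033 and 1.05 in ROI 028. The other heavy-chain constant gene among the targets, *Ighm*, held 8 counts in the IBA1+ segment of ROI 033, 16 in that of ROI 028 and 9 in that of ROI 027.

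**Figure D5:**
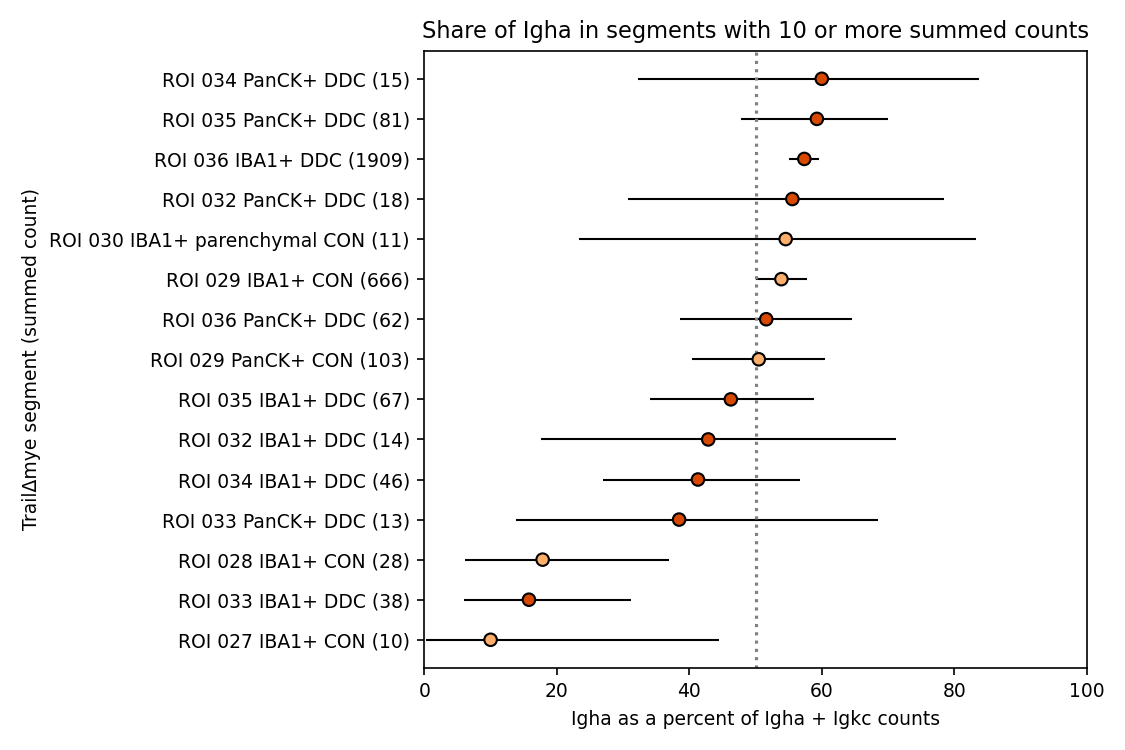
*Igha* as a percent of the summed *Igha* and *Igkc* counts, with 95% exact binomial intervals, in the 15 segments (all TrailΔmye, CON for control diet) with 10 or more summed counts, which are given in brackets. The segments of ROI 029 and ROI 036 lie between 50.5% and 57.4%, and the IBA1+ segments of ROI 033, ROI 028 and ROI 027 between 10.0% and 17.9%. Segments close to background lie near the former, such as the PanCK+ segment of ROI 035 at 59.3%.

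By location, the fitted log2 fold change of periportal over parenchymal IBA1+ segments was 4.55 for *Igha* and 5.05 for *Igkc*. Without ROI 029 and ROI 036 it was 0.036 for *Igha* and 2.08 for *Igkc*, and without the ROI 029 segment alone 2.32 and 3.30. Of the 7 parenchymal segments only 2 were above the floor for *Igha* and 1 for *Igkc*. The size of these folds is therefore not fixed by measured parenchymal levels.

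By diet within TrailΔmye, the log2 fold change of DDC over the control diet in PanCK+ segments was -2.42 for *Igha* and -2.79 for *Igkc*. Without ROI 029 and ROI 036 it was 0.71 and -1.09. The control segments left held 1 *Igha* count each, under the floor, and 1, 1 and 7 *Igkc* counts. The *Igha* value thus gives no direction. The SD of the log2 level over the 4 control PanCK+ segments was 2.63 and 2.47. Over the 4 control periportal IBA1+ segments it was 3.99 and 3.26. In periportal IBA1+ segments the log2 fold change was 0.50 and 0.29. Leaving out the ROI 029 segment there gave 6.07 and 3.60, and leaving out that of ROI 036 gave -4.12 and -3.04. In WT no diet difference could be given, since both groups were at or under the floor.

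By genotype, a fold could be given only as a lower bound, with 3 counts in each WT segment as the floor. TrailΔmye over WT was at least 7.58-fold for *Igha* and 6.85-fold for *Igkc* in control diet-fed periportal IBA1+ segments, and at least 11.8-fold and 9.23-fold in DDC-fed ones. In control diet-fed PanCK+ segments it was at least 2.11-fold and 2.35-fold. In DDC-fed PanCK+ segments the TrailΔmye mean was under the WT floor. All of these bounds fell below 1 once ROI 029 and ROI 036 were left out, so that no fold remained. The group means behind them, such as 170 ± 364 (SD, n = 5) for *Igha* in DDC-fed TrailΔmye periportal IBA1+ segments, have an SD above the mean.

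Besides *Igha* and *Igkc*, 94 companion genes were listed, of which 47 were measured and tested with edgeR's quasi-likelihood test and Benjamini-Hochberg adjustment over all genes. Between PanCK+ and IBA1+ segments, 20 of 47 were lower in PanCK+ and none was higher, where 15.8% of all genes passed the test in either direction. The median log2 fold change of the 47 was -0.33, against -0.06 for all genes. The segments were split by a macrophage stain, and the lists hold genes of macrophages, such as the Fc gamma receptors. The direction of such genes was thus set by the split and is no separate result on antibody production. *Jchain* was lower in PanCK+ segments by a log2 fold change of -2.09 (SE 0.42, adjusted p = 5.65e-05), and with the ROI as a block by -1.53 (adjusted p = 2.75e-05). Without the ROI 036 IBA1+ segment it was -0.57 (adjusted p = 0.288), and without both ROIs -0.05 (adjusted p = 1). On log2 levels, limma gave -0.61 (adjusted p = 0.136). *Ighm* was lower by -0.88 (SE 0.20, adjusted p = 0.000307).

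The receptors made up the largest group, with 9 of 10 measured genes lower in PanCK+ segments. The Fc gamma receptors, by which macrophages bind IgG, were among them. *Fcgr3* had a log2 fold change of -1.95 (SE 0.20) and *Fcgr2b*, the inhibitory receptor, of -1.91 (SE 0.20). *Fcer1g*, the shared signalling chain, had one of -1.74 (SE 0.18). *Pigr* was also lower in PanCK+ than in IBA1+ segments, by -0.96 (SE 0.19, edgeR adjusted p = 4.75e-05), as were *Asgr1* (-0.59) and *Asgr2* (-0.62), which encode the asialoglycoprotein receptor of hepatocytes. The summed hepatocyte markers were higher in the IBA1+ segment in 12 of the 15 shared ROIs, and their part in these differences was not tested.

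Of the 10 plasma cell genes, *Cd38* (-0.81) and *Slamf7* (-1.15) were lower in PanCK+ segments, both of which are also found on other leukocytes. Of the 16 secretory pathway genes 1 was, *Edem1*, and of the 3 B cell genes *Cd22* and *Cd37* were. Of the 6 measured recruiting and survival signals 4 were, among them the chemokine *Cxcl12* (-1.60) and its receptor *Cxcr4* (-0.85), a pair that guides plasma cells in bone marrow.

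Between periportal and parenchymal IBA1+ segments 2 of 47 companion genes passed the test, where 2.23% of all genes did. *Jchain* was higher in periportal segments by a log2 fold change of 3.08 (SE 0.79, edgeR adjusted p = 0.0156), and *Asgr1* was lower by -0.99 (SE 0.23, adjusted p = 0.00684). Without the ROI 029 segment the value for *Jchain* was 1.63 (adjusted p = 0.436), and without both ROIs 0.86 (adjusted p = 0.41). It also missed the threshold without the parenchymal segment of ROI 030 (adjusted p = 0.0817), of ROI 031 (0.119) or of ROI 038 (0.0722). DESeq2, which gave no adjusted p for *Jchain*, called none higher and 3 lower, *Asgr1*, *Pigr* and the chaperone gene *Hspa5*. *Ighm* had a log2 fold change of 0.94 (SE 0.33, adjusted p = 0.15).

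With DDC, *Pigr* fell where it was called. In WT PanCK+ segments its Q3-normalized level was 42.0, 47.3 and 63.0 on the control diet, and on DDC it had a median of 15.8 with a range of 5.25 to 17.3. These levels stand for only 9 to 12 counts on the control diet and 2 to 8 on DDC, the lowest under the floor of 3 counts. The groups did not overlap, and the log2 fold change was -1.87 (SE 0.43, edgeR adjusted p = 0.00619). In TrailΔmye periportal IBA1+ segments it ranged from 63.0 to 99.8 on the control diet and from 15.3 to 36.0 on DDC, again without overlap, with a log2 fold change of -1.66 (SE 0.31, adjusted p = 7.83e-05). Without the control segment of ROI 003, the value in WT PanCK+ segments was -1.70 (adjusted p = 0.11). In WT periportal IBA1+ segments the log2 fold change was -1.85 (SE 0.53, adjusted p = 0.0687), and in TrailΔmye PanCK+ segments -0.57 (SE 0.32, adjusted p = 0.526). The summed hepatocyte markers were lower on DDC as well. In TrailΔmye periportal IBA1+ segments they ranged from 10109 to 14167 on the control diet and from 1328 to 4064 on DDC, without overlap. In WT PanCK+ segments they ranged from 3309 to 5131 and from 1926 to 3354, with overlap. Their part in the change of *Pigr* was not tested. The interaction of diet and genotype was not called for *Pigr* in PanCK+ (adjusted p = 1) or IBA1+ segments (adjusted p = 1).

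In TrailΔmye periportal IBA1+ segments DDC changed 8 of 47 companion genes, where 9.38% of all genes passed the test. *Fcer1g*, *Fcgr1*, *Fcgr2b* and *Fcgr3* rose, with log2 fold changes of 0.86 to 1.22 and ranges of counts of 4 to 37 on the control diet and 13 to 186 on DDC, and *Asgr1*, *Asgr2*, *Pigr* and the chaperone gene *Hsp90b1* fell. *Asgr1* and *Asgr2* are hepatocyte genes, and these are the segments in which the summed hepatocyte markers were lower on DDC without overlap, whose part was not tested. None of the 4 that rose, nor *Hsp90b1*, passed the test without ROI 029 and ROI 036, and without the control segment of ROI 028 the number called was 5. In the PanCK+ segments 2 of 47 passed in TrailΔmye (all genes 2.1%) and 2 of 47 in WT (0.91%). These were *Pigr* in WT, *Fcgr2b* in TrailΔmye, at least 1.44-fold higher against 1 count in every control segment, and *Vcam1*, an adhesion molecule for leukocytes, in both. *Vcam1* was at least 2.35-fold higher in WT, where the control segments held 1 or 2 counts, and had a log2 fold change of 1.56 (SE 0.42, edgeR adjusted p = 0.0202) in TrailΔmye. Neither *Fcgr2b* nor *Vcam1* passed the test in TrailΔmye PanCK+ segments with TMM factors, with DESeq2, or without the control segment of ROI 026, ROI 028 or ROI 029, and *Vcam1* did not in WT without any 1 of the 3 control segments. In TrailΔmye PanCK+ segments the calls turned from 2 higher and 0 lower to 0 higher and 2 lower with TMM factors and with DESeq2. Those lower were *Asgr1*, at -1.27 (adjusted p = 0.0256) and -1.33 (0.0204), and *Dnajb9*, a co-chaperone of the endoplasmic reticulum, at -1.28 (0.0318) and -1.36 (0.0295). With total counts alone, 2 were higher and *Asgr1* lower. In WT periportal IBA1+ segments only *Asgr1* passed of 47 (all genes 1.19%), with a log2 fold change of -2.11 (SE 0.53, adjusted p = 0.0242), and it did not without the segment of ROI 005, ROI 011 or ROI 013 (adjusted p up to 0.914).

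Between genotypes edgeR called none of the 47 companion genes in any of the 4 comparisons, where it called 0.218% and 0.152% of all genes in PanCK+ segments on the control diet and DDC, and 0.199% and 0.019% in periportal IBA1+ segments. At an unadjusted edgeR p under 0.05 there were 3, 5, 0 and 3 of the 47, and 273, 974, 279 and 251 of all 10547 genes. Neither DESeq2 nor limma called any of the 47. *Jchain* held 1 count in each WT periportal IBA1+ segment, and its adjusted p was 1 on both diets there. The diet by genotype interaction was called for none of 47 in PanCK+ (all genes 0.114%, 3 at an unadjusted p under 0.05) or periportal IBA1+ segments (0.0569%, 1), and the diet comparison of parenchymal segments for none (0.759%, 5), by edgeR, DESeq2 or limma. Of all 10547 genes, 406, 203 and 680 had an unadjusted edgeR p under 0.05 in these 3 comparisons.

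The genes most like *Igha* over the 38 segments, by Pearson's r of the log2 Q3-normalized level among 3088 genes with a mean count of at least 10, were *Igkc* (0.86), *Jchain* (0.84), *Ms4a6c* (0.45), *Zfp787* (0.44) and *Rps27* (0.44). Those most like *Igkc* were *Igha* (0.86), *Jchain* (0.81), *Dpt* (0.58), *Gsn* (0.51) and *Thbs2* (0.48). The high values rest on ROI 029 and ROI 036. So does the entry of *Igha*, *Igkc* and *Jchain* among the compared genes, since over the 34 other segments their mean counts were under 10. Over the 34 other segments, r was 0.24 between *Igha* and *Igkc*, 0.18 between *Igha* and *Jchain*, and 0.25 between *Igkc* and *Jchain*. There *Igkc* was most like *Dpt* (0.66), which encodes dermatopontin, a protein of the extracellular matrix. The segments differ together in depth and segment class and may share animals, so these values only describe the data set.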

How the data were processed

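The expected counts per gene and segment are the values the authors deposited after sequencing, bcl2fastq, quality control and a filter on the limit of quantification; the build mm10 stands in the submitters' processing notes, and the aligner was not given in the sources used here. The Q3-normalized signal is the authors' deposited table. Totals ran from 20319 to 836971. The negative probe, 0.00285% of counts, was left out of fits, and 3 genes were rounded.

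edgeR 4.0.16 in R 4.3.3 fitted 10547 genes by quasi-likelihood with upper-quartile factors, a coefficient per group, two-sided tests and an adjusted p under 0.05. DESeq2 1.42.0 and limma 3.58.1 on log2 of signal plus 1 or 0.5 were alternatives. The fit was tested on simulated data. Segments were grouped by their labels.

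Members and lists were chosen with earlier results of these data known. *Igha*, *Igkc*, all measured immunoglobulin, plasma cell and B cell genes, *Pigr*, called list genes and the 5 most correlated genes could be named. *Cdc20*, *Tbxas1* and *Cd3e* were named after their values were seen, or as markers.

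PanCK+ and IBA1+ segments were paired by the ROI number in the labels. Deviations of paired segments from group means correlated with a median of 0.03 (-0.02 to 0.53 over 15 ROIs).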

Additional observations from a re-analysis of the deposited data

Results flagged for a closer look

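In 9 cases a segment lay so far from the others of its group that the gap to the nearest one took up most of the group's range (by Dixon's ratio of gap to range). Since *Igha* and *Igkc* were chosen for counts that vary between segments, and ROI 029 and ROI 036 by those counts, this sorts and describes the values and is no test of them. There were 15 combinations of *Igha*, *Igkc*, *Jchain* or *Ighm* with a group of 4 or 5 segments in which a segment exceeded 3 counts. All 9 were segments of ROI 029 or ROI 036.

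In control diet-fed TrailΔmye PanCK+ segments the Q3-normalized level of ROI 029 was 109 for *Igha*, with the next segment at 3.50, and 107 for *Igkc*, with the next at 18.4. In the periportal IBA1+ segments of that group ROI 029 reached 471 for *Igha* (next 3.28), 403 for *Igkc* (next 15.1) and 114 for *Jchain* (next 7.00).

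In DDC-fed TrailΔmye liver the PanCK+ segment of ROI 036 had an *Igha* level of 13.4 (next 6.30). Its IBA1+ segment reached 822 for *Igha* (next 12.5), 611 for *Igkc* (next 25.9) and 134 for *Jchain* (next 8.89). *Ighm* had no such segment.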

How the results depend on the processing

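Leaving out ROI 029 and ROI 036 was chosen after seeing the data. The log2 fold change of PanCK+ over IBA1+ segments was then -0.40 for *Igha*. That of periportal over parenchymal segments was 0.036 for *Igha* and 2.08 for *Igkc*. That of DDC over the control diet in TrailΔmye PanCK+ segments was 0.71 for *Igha*, against control segments of 1 count each. On log2 of signal plus 1 and plus 0.5, which weigh segments equally, limma gave -0.70 and -0.72 (*Igha*) and -1.02 and -1.07 (*Igkc*) between PanCK+ and IBA1+, 1.07 and 1.11 (*Igha*) and 1.92 and 2.05 (*Igkc*) by location, and -0.45 and -0.43 (*Igha*) by diet in TrailΔmye PanCK+ segments. In 217 settings these differences moved by less than the spread between segments, and in 21 by more. That spread was taken with ROI 029 and ROI 036 included, which widen it, so that moves within it show no stability.

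With 1 segment left out, the log2 fold changes ranged from -4.32 to -0.96 (*Igha*) and -3.94 to -1.29 (*Igkc*) between PanCK+ and IBA1+, 2.32 to 4.81 and 3.30 to 5.32 by location, -2.79 to 1.14 and -3.23 to -0.61 by diet in TrailΔmye PanCK+ and -4.12 to 6.07 and -3.04 to 3.60 in IBA1+ segments. Both ends between PanCK+ and IBA1+, the low ends by location, the high ends by diet in PanCK+ and both ends in IBA1+ segments came without a segment of ROI 029 or ROI 036. A genotype bound was kept only where it was above 1, as in 44 settings, so that their staying above 1 shows no stability. Leaving out the TrailΔmye segment of ROI 029 (control diet) or ROI 036 (DDC) gave none.

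The number of companion genes called between PanCK+ and IBA1+ was 20 (19 to 22 with 1 segment left out), 8 of the genes left by filterByExpr, and within single groups 0 (WT control), 2 (WT DDC), 9 (TrailΔmye control) and 13 (TrailΔmye DDC). Within WT groups *Ighm* (0.17), *Cd38* (0.47) and *Asgr1* (0.40) turned sign. With the ROI as replicate block the count was 20 and the paired values were -1.78 and -2.05, as given above; no call named above was lost. DESeq2 gave no adjusted p for *Jchain*. By location, 1 was called without both ROIs and 0 within the control diet alone (0 to 3 with 1 left out).

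By diet, without both ROIs 1 was called in WT PanCK+, 0 in TrailΔmye PanCK+ and 4 in TrailΔmye IBA1+ segments. In WT IBA1+ segments the count was 0 with TMM factors or total counts, 2 with filterByExpr or DESeq2, and 3 with limma or with 1 subtracted from every count. In TrailΔmye IBA1+ segments it was 2 with limma and 5 with 1 subtracted, in parenchymal segments 2 with filterByExpr, and between genotypes on DDC in IBA1+ segments 1 with 1 subtracted. With 1 segment left out these counts ranged from 0 to 2 (WT PanCK+), 0 to 3 (TrailΔmye PanCK+), 0 to 2 (WT IBA1+), 5 to 11 (TrailΔmye IBA1+) and 0 to 1 (parenchymal). The cause of these changes was not tested.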
